A study of Mus musculus with 6 samples.

Results

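The comparison is between 2 ways of removing paraffin from fixed mouse brain before nuclei were isolated: mineral oil with heat, and xylene at room temperature. Its members were the wells of the SCRB-seq bulk table whose treatment label names either method, which selected 32 of 64 wells, 16 per method. Each method was represented by 8 wells of 10 sorted nuclei and 8 wells of 100 sorted nuclei. The remaining 32 wells of that table, 16 in xylene with heat and 16 from frozen tissue, were used only where stated. All 32 wells came from C57BL/6J mice aged 8 to 12 weeks, per the labels, with no further allele or treatment named. The tissue is labelled cortex, and the protocol describes 50 µm scrolls cut from formalin-fixed, paraffin-embedded (FFPE) brain. Solvent and heat both differed between the 2 methods; values of the heated xylene wells are given beside the first results. The labels name neither the animal, block nor sex behind a well, so wells are replicate sorts and the p-values below measure the spread between wells, which may be technical.

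Formalin fixation cross-links RNA to protein and fragments it, and paraffin wax keeps water and enzymes out of the tissue, so the wax must be dissolved and the tissue rehydrated through graded ethanol before nuclei can be freed. Xylene, an aromatic solvent, is the usual agent; mineral oil dissolves warm wax and is less volatile. SCRB-seq is a 3′ counting method: reverse transcription from the poly(A) tail gives each well its own barcode, and wells are then pooled and amplified together. A nucleus holds newly made and retained RNA, long noncoding RNAs among them, and little of the mature cytoplasmic message.

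The design fixes which wells shared a reaction. Every pool held 8 wells of 1 method and 1 nuclei number, told apart by the same set of 8 well barcodes, and the pools were told apart by an i7 index. The indexes are shown because method, nuclei number and pool cannot be told apart from each other within 1 number, and because well barcodes recur in every pool. Capitals mark the whole index.

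i7 index, room-temperature xylene, 10 nuclei: TACTTGAA
i7 index, mineral oil, 10 nuclei: TTGCTAAG
i7 index, room-temperature xylene, 100 nuclei: ACAAAGTG
i7 index, mineral oil, 100 nuclei: ATTGCCGG
well barcode 1: ATACTT
well barcode 2: CTTCTG
well barcode 3: TTCCTC
well barcode 4: AGAATT
well barcode 5: CGACTT
well barcode 6: CGGAGG
well barcode 7: GCGTGG
well barcode 8: CGTCGC

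Wells resembled their own pool. With every well thinned to 7512 counts, the mean Spearman correlation of a well with the other wells of its pool, over 13134 genes, was 0.407 for mineral oil at 10 nuclei, 0.345 for xylene at 10, 0.330 for mineral oil at 100 and 0.314 for xylene at 100. Wells of the same method at the other number correlated at 0.226 in mineral oil and 0.285 in xylene, and wells of the other method at the same number at 0.248 (10 nuclei) and 0.279 (100 nuclei). As deposited, without thinning, the correlation within a pool at 10 nuclei was in the opposite order, 0.478 in mineral oil and 0.620 in xylene, and at 100 it was 0.644 and 0.635. At equal depth 32 of 32 wells were closest to their own pool by the Spearman correlation and 31 of 32 by Pearson's, where the xylene well of barcode 3 at 100 nuclei correlated at 0.309 with its own pool and 0.313 with xylene at 10. These correlations are descriptions, and share library and depth within a pool. For that reason calls at 1 nuclei number are set below beside those at the other, a separate pair of pools, and the averaged calls beside a fit in which each pool was 1 sample.

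Mineral oil gave fewer counts and fewer genes than room-temperature xylene at 10 nuclei, and a smaller difference at 100. At 10 nuclei the mineral oil wells held 7512 to 20593 mouse counts (median 14557.5) and the xylene wells 23015 to 124694 (median 55785.5). The means were 14398 ± 4676 and 60914 ± 32653 (SD, n = 8 wells each), and the groups did not overlap (exact permutation test, two-sided, p = 0.0001554, the smallest that 12870 splits of 8 against 8 can give in a two-sided test). At 100 nuclei mineral oil wells held 32178 to 105967 counts (median 74274) and xylene wells 55049 to 128394 (median 77291.5), which overlapped (71051 ± 26187 against 84817 ± 28036, SD, n = 8; exact permutation p = 0.323).

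Fewer genes were also seen at equal depth. Thinned to 7512 counts, a mineral oil well at 10 nuclei held 1203 to 1916 mouse genes (median 1454), and a xylene well 2127 to 3099 (median 2510; exact permutation p = 0.0001554). At 100 nuclei the ranges were 2816 to 3476 (median 3245) and 3255 to 3813 (median 3618.5), which overlapped (exact permutation p = 0.00559). In the heated xylene wells, the means were 54963 mouse counts and 2719 genes at equal depth at 10 nuclei, near those of room-temperature xylene (60914 and 2551) and above those of mineral oil (14398 and 1525). At 100 nuclei heated xylene averaged 3266 genes at equal depth, beside 3213 in mineral oil and 3581 in room-temperature xylene. Unthinned, the means were 2091 and 6311 genes at 10 nuclei and 8260 and 9796 at 100. Counting only genes with at least 2 counts, the methods differed at 100 nuclei by -11.3 genes on average at equal depth (exact permutation p = 0.807) and by -1549 genes unthinned (exact permutation p = 0.0476).

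Some further measures moved with method at 10 nuclei. The 10 most abundant mouse genes took a mean 30.6% of counts in mineral oil and 17.7% in xylene at 10 nuclei (exact permutation p = 0.0127), and 9.77% and 8.44% at 100 (p = 0.428, exact permutation). Counts assigned to human genes, which these mouse wells should not hold, made up 26.7 ± 3.10% in mineral oil and 15.7 ± 3.99% in xylene at 10 nuclei (SD, n = 8; exact permutation p = 0.0001554). At 100 nuclei they were 10.4 ± 2.61% and 8.43 ± 2.20% (exact permutation p = 0.127), while the frozen wells averaged 2.78% and 1.91%. Depth and human share moved with the gene differences below at 10 nuclei; their part in them was not tested.

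**Figure D1:**
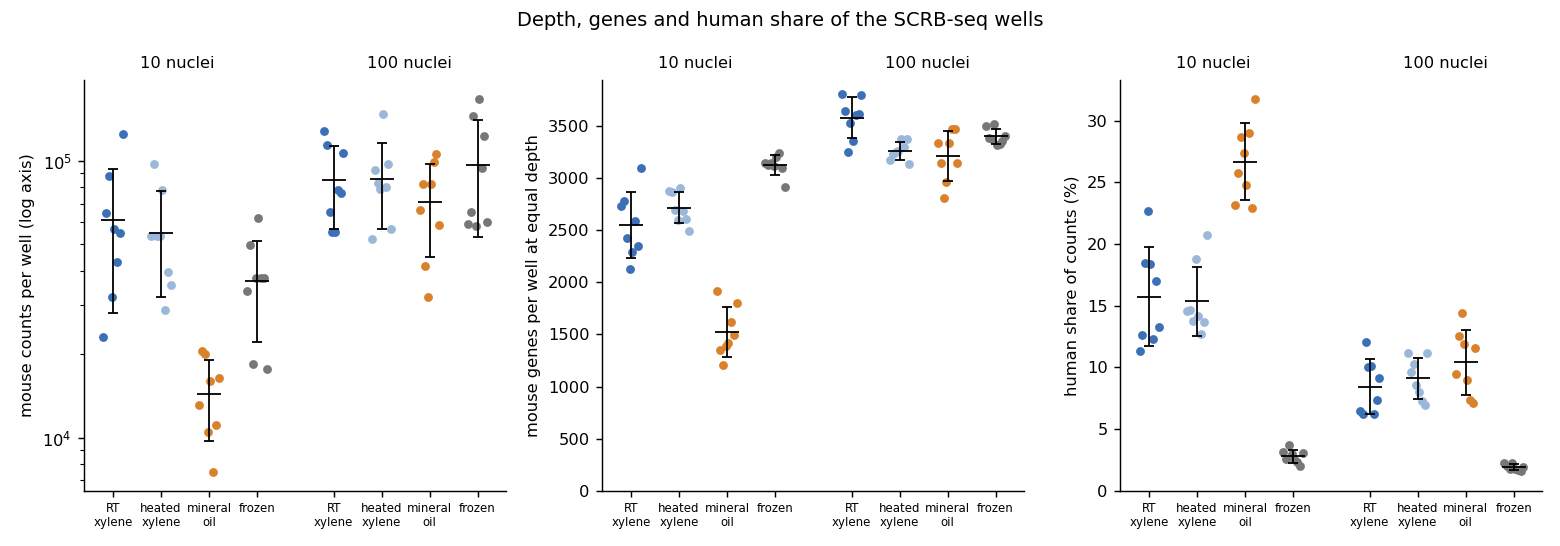
Mouse counts per well (log axis), mouse genes per well after thinning to 7512 counts, and the percentage of counts on human genes, for the 8 SCRB-seq pools. Points are wells, with mean ± SD of 8; mineral oil at 10 nuclei (mean 14398 counts, 1525 genes, 26.7% human) lies apart from xylene at 10 in each panel, and the methods overlap at 100 nuclei.

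Gene detection as deposited, without thinning, differed in the same direction. The 8 wells of 10 nuclei held 115185 mouse counts in mineral oil and 487311 in xylene, so depth differed with method. Of the 1979 genes that passed the count filter, 346 had no count in any mineral oil well of 10 nuclei, against 14 in xylene wells of 10; 331 and 1243 were seen in all 8 wells. At 100 nuclei 5 genes in mineral oil and 0 in xylene were seen in no well, and 1594 and 1811 in all 8. A set of 171 genes (8.64% of those tested) had a count in all 8 xylene wells and in 0 of 8 mineral oil wells at 10 nuclei, and 2 genes had the reverse. Of those 171 genes, 128 were seen in all 8 mineral oil wells of 100 nuclei, so most were detected with mineral oil at the larger number.

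**Figure D2:**
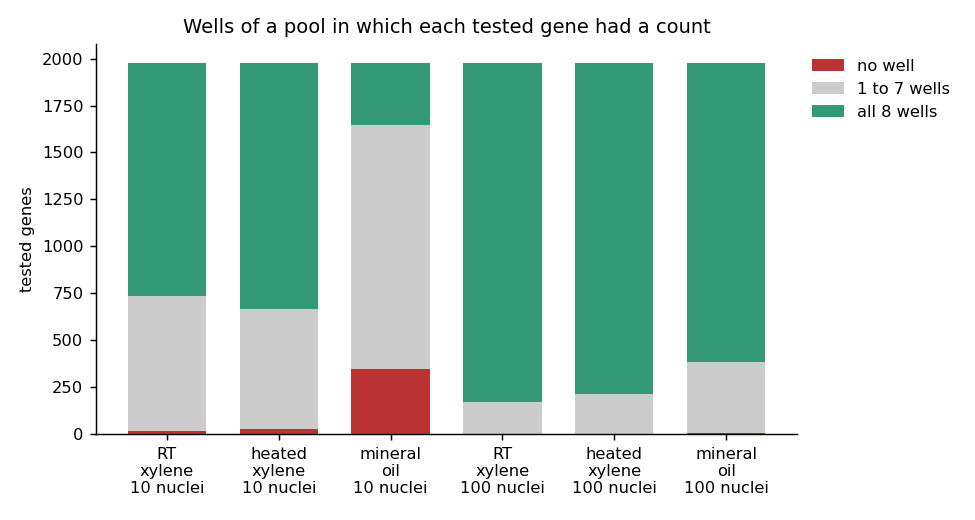
Number of the 1979 tested genes with a count in no well, in 1 to 7 wells and in all 8 wells of each FFPE pool, without thinning. Mineral oil at 10 nuclei has 346 genes in no well and 331 in all 8, and xylene at room temperature 14 and 1243.

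The labelled tissue was checked against cell type markers. The summed share of the cortical projection neuron markers was 0.0437 to 0.136% of mouse counts in xylene and 0.0192 to 0.115% in mineral oil at 10 nuclei, 0.0586 to 0.125% and 0.0598 to 0.128% at 100, and averaged 0.239% and 0.286% in the frozen wells. Slc17a7, a vesicular glutamate transporter on the cortical list that cerebellar granule neurons use too, does not tell the tissues apart and had 9 and 9 counts summed over the 8 wells in xylene and mineral oil at 10 nuclei, and 33 and 48 at 100. Neurod6, a transcription factor of cortical projection neurons, had 0 counts in all 4 pools, and Tbr1 and Fezf2 had 3 and 4 counts in xylene at 100 nuclei and 0 elsewhere. Gabra6 and Cbln3, markers of cerebellar granule neurons, were present in every pool, with 90, 35, 163 and 311 counts for Gabra6 in xylene and mineral oil at 10 nuclei and in xylene and mineral oil at 100, an order kept for every run of 4 counts below; these pools held 487311, 115185, 678533 and 568404 mouse counts. Both were at 0 in the 16 frozen wells. The summed share of the granule neuron markers was 0.0943 to 0.369% of mouse counts in xylene and 0.0599 to 0.719% in mineral oil at 10 nuclei, and 0.285 to 0.442% and 0.374 to 0.625% at 100, and averaged 0.0495% and 0.0576% in the frozen wells. In mineral oil at 10 nuclei the wells of barcodes 1 and 6 held 0.696 and 0.719%, and the rest 0.0599 to 0.152%. The FFPE wells of both methods held cerebellar granule neuron markers, which goes against a purely cortical label. Here and below, fewer nuclei of a type and less RNA per nucleus cannot be told apart in bulk wells.

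Across both numbers, 831 of 1979 genes (42.0%) differed between methods in edgeR's quasi-likelihood test averaged over 10 and 100 nuclei (Benjamini-Hochberg adjusted p under 0.05): 105 (5.31%) were higher and 726 (36.7%) lower in mineral oil. The excess of lower genes went with a negative median over the tested genes. The median log2 fold change, mineral oil minus xylene, was -0.65 averaged, -1.18 at 10 nuclei and 0.12 at 100, beside 346 genes at 0 in mineral oil at 10. Over the 639 genes seen in every pool the median was 0.046 averaged, -0.042 at 10 nuclei and 0.15 at 100. Relative to the median of all tested genes, 773 genes were called, 289 higher and 484 lower (37.4% higher, against 12.6% without the shift). With each pool summed to 1 sample, 2 pools per method, edgeR called 0 of 1979 genes (86 at an unadjusted p under 0.05, or 4.35%; lowest adjusted p 0.806), and DESeq2 called 4, among them Meis2 (-3.42), Tspan3 (1.64) and Nenf (6.10 on the log2 scale). The well-level calls compare these 4 pools of wells.

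Most of the calls came from 10 nuclei. There 930 genes (47.0%) were called, 98 (4.95%) higher and 832 (42.0%) lower in mineral oil; relative to the median shift 890 were called, 377 higher and 513 lower, so the share higher was 42.4% in place of 10.5%. At 100 nuclei 93 genes (4.70%) were called, 35 (1.77%) higher and 58 (2.93%) lower. Relative to the shift 93 were called, 21 higher and 72 lower (22.6% higher in place of 37.6%). With DESeq2's size factors the 93 calls were 19 higher and 74 lower. More were higher than lower with a stricter filter (25 and 20), over the 639 genes seen in every pool (8 and 6) and at equal depth (7 and 5). The other fits had more lower calls, as with the well barcode as a block (72 and 80). Over the 1979 genes the log2 fold changes at the 2 numbers correlated at Pearson r = 0.16 (Spearman 0.18; 53.0% with the same sign), a description across genes, which are not independent. The difference between numbers was itself called for 766 genes (38.7%), with 70 (3.54%) relatively higher and 696 (35.2%) relatively lower in mineral oil at 10 nuclei. Genes called in the same direction at both numbers, in different wells and pools, numbered 43 (2.17%): 39 lower and 4 higher in mineral oil. They were 39 of the 58 genes lower and 4 of the 35 higher at 100 nuclei. Of all tested genes 42.0% were lower and 4.95% higher at 10 nuclei, so part of the overlap follows from those shares alone. The count of 43 depended on the fit: it was 11 with the 32 wells fitted alone, 17 with a stricter filter, 109 with limma voom and 3 over the 639 genes seen in every pool. After the shift all 43 kept their sign and 34 were still called at both.

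**Figure D3:**
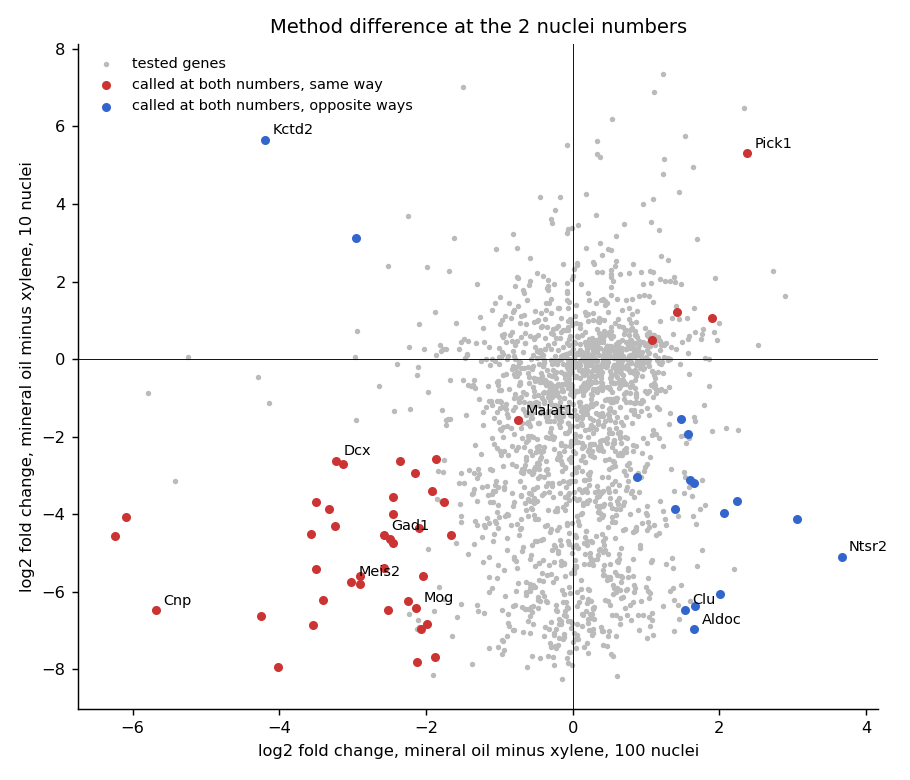
Log2 fold change, mineral oil minus room-temperature xylene, of each tested gene at 100 nuclei (horizontal) and at 10 nuclei (vertical). The 43 genes called the same way at both numbers are in red and the 16 called opposite ways in blue; the cloud is centred below 0 at 10 nuclei (median -1.18) and near 0 at 100 (0.12).

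Oligodendrocyte genes, whose products build and hold the myelin sheath around axons, had calls lower in mineral oil, and none higher, at both numbers. Their list had 9 members in the fit: 8 were called lower and 0 higher at 10 nuclei, where 42.0% of all tested genes were lower, and 3 lower and 0 higher at 100, where 2.93% were lower. The median ratio of mineral oil to xylene CPM (a gene's counts scaled to a common total of mouse counts per well) was 0.184 at 10 nuclei and 0.336 at 100, beside 0.642 and 1.01 for all 1979 genes; genes at 0 on 1 side were set at the bound given by 3 counts summed over the 8 wells, here and in every ratio of this kind. After the shift to an equal median, 7 were lower at 10 and 4 at 100, and 0 higher. Here and below, counts after the shift stand beside 513 lower and 377 higher of all 1979 genes at 10 nuclei. At 100 nuclei they stand beside 72 lower and 21 higher. As a share of mouse counts, the 11 of 12 listed markers in the table made up 0.0806 to 1.75% of a xylene well (median 0.207) and 0.00958 to 0.289% of a mineral oil well (median 0.044) at 10 nuclei. At 100 nuclei the ranges were 0.156 to 0.471% (median 0.369) and 0.0837 to 0.227% (median 0.0998), and they overlapped at both numbers, at 100 through the xylene well of barcode 5 alone (without it xylene began at 0.278%). Heated xylene wells held 0.143 to 0.486% (median 0.26) at 10 nuclei and 0.207 to 0.673% (median 0.348) at 100. In the xylene wells of 10 nuclei that of barcode 1 held the 1.75%: the mean difference there, -0.297 percentage points, was -0.102 without it.

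Cnp, an enzyme of non-compact myelin (chr11:100574904-100591729, plus strand, GRCm38), had 69, 0, 127 and 1 counts. At 100 nuclei its level was 90.8 to 508 CPM (median 162) in the 8 xylene wells and 0 to 10.1 CPM (median 0) in the 8 mineral oil wells. All xylene wells lay above all mineral oil wells, also at 10 nuclei, where mineral oil held 0 counts. Cnp had counts in 2 of 8 heated xylene wells of 10 nuclei, and in 8 of 8 at 100. The fitted log2 fold change at 100 nuclei was -5.68 ± 0.91 (SE, adjusted p = 0.00011); at 10 nuclei Cnp was at least 5.44-fold lower, taking 3 counts over the 8 wells as the limit a count of 0 allows.

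Mog, a surface protein of the outer myelin layer, had 66, 0, 114 and 19 counts, with a log2 fold change of -2.13 ± 0.49 (SE, adjusted p = 0.00403) at 100 nuclei and at least 5.2-fold lower at 10. Mobp, a basic protein of compact myelin, had 39, 0, 117 and 21 counts, -2.03 ± 0.55 (SE, adjusted p = 0.0189) at 100 nuclei and at least 3.07-fold lower at 10, or 1.73-fold without the xylene well of barcode 2, which held 20 of the 39 counts. Both were among the 39 genes lower at both numbers, as was Cnp. Mag, an adhesion protein facing the axon, had 54, 0, 101 and 0 counts, in 7 of 8 xylene wells at 10 nuclei and 7 of 8 at 100: it was kept out of the fit by its low counts, and was at least 4.25-fold lower at 10 nuclei and 28.2-fold at 100 by its summed CPM, named after its values were seen.

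Mbp, the myelin basic protein, had 134, 0, 436 and 134 counts, at least 10.6-fold lower at 10 nuclei (6.37-fold without the xylene well of barcode 1, which held 57 of the 134), with a log2 fold change of -1.37 ± 0.50 (SE, adjusted p = 0.114) at 100. Mal, a myelin proteolipid, had 92, 0, 137 and 45 counts and was at least 7.25-fold lower at 10, or 3.64-fold without the same xylene well, which held 48 of the 92. Ugt8a, which makes the galactolipids of myelin, had 272, 77, 136 and 213 counts, with log2 fold changes of -0.33 ± 0.77 (SE, adjusted p = 0.776) and 0.64 ± 0.75 (SE, adjusted p = 0.701) at 10 and 100 nuclei, neither past the threshold. Its level differed by well barcode (edgeR adjusted p = 1.49e-11) and was highest at barcode 7 in each of the 6 FFPE pools, from 815 CPM in xylene at 100 nuclei to 2958 CPM in xylene at 10. St18, a transcription factor, had 85, 3, 152 and 117 counts: -3.13 ± 0.90 (SE, adjusted p = 0.00347) at 10 nuclei and 0.16 ± 0.59 (SE, adjusted p = 0.931) at 100.

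**Figure D4:**
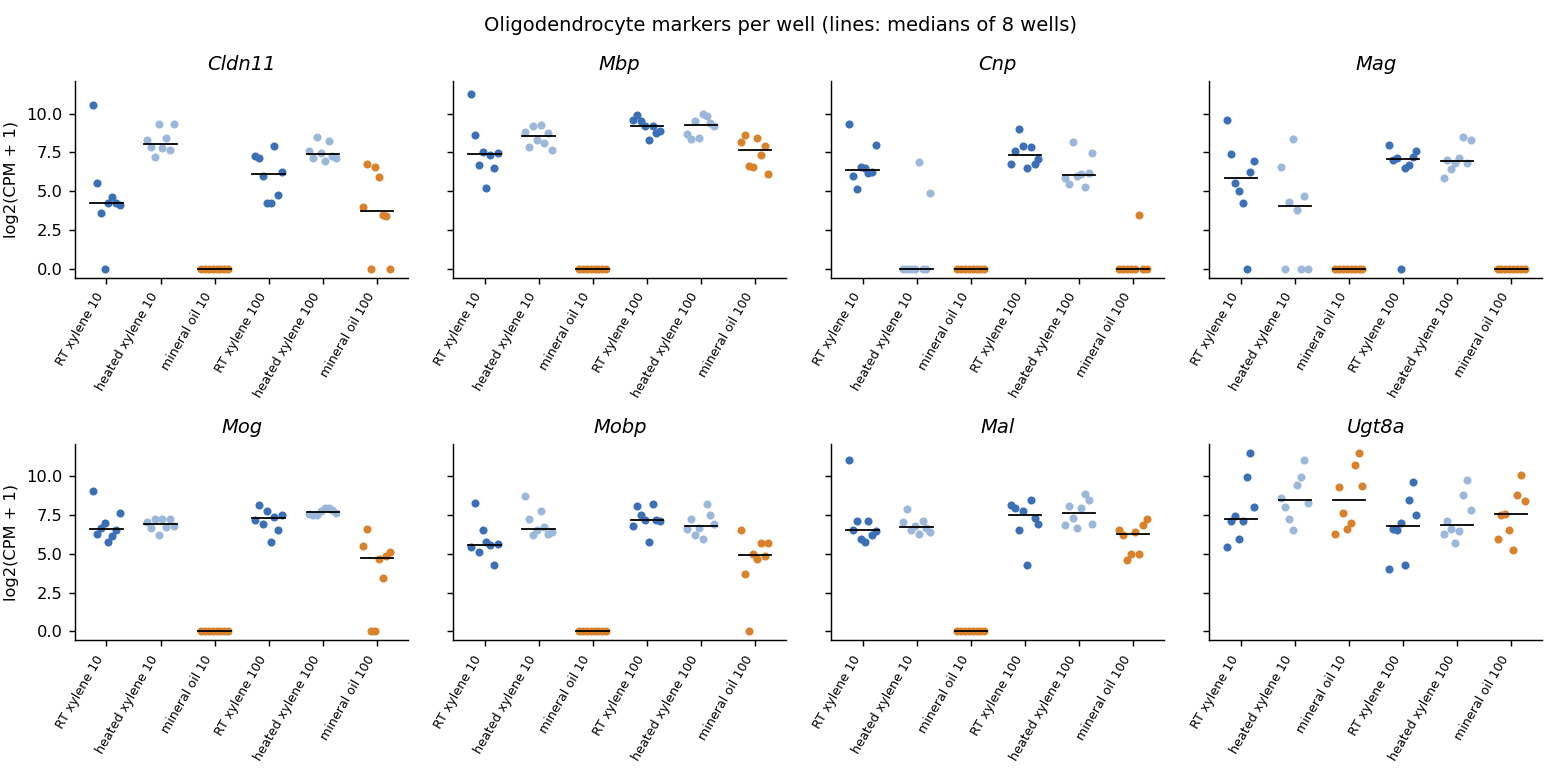
Level of 8 oligodendrocyte markers, as log2(CPM + 1), in each well of the 6 FFPE pools, with lines at the medians of 8 wells. The medians of Cnp and Mag are lower in mineral oil than in room-temperature xylene at both numbers, Cnp is also at 0 in most heated xylene wells of 10 nuclei, and Ugt8a overlaps between methods at both.

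Several neuronal genes were lower at both numbers. Gad1, which makes the transmitter GABA (chr2:70553072-70602014, plus strand), had 168, 2, 221 and 29 counts. Its level was 123 to 608 CPM (median 369.9) in xylene and 0 to 76.4 CPM (median 0) in mineral oil at 10 nuclei, and 109 to 599 CPM (median 315) and 20.2 to 120.4 CPM (median 43.8) at 100. The groups did not overlap at 10 nuclei, where mineral oil held counts in 2 of 8 wells, and overlapped in CPM at 100. Log2 fold changes were -4.55 ± 0.65 (SE, adjusted p = 2.19e-07) and -2.57 ± 0.44 (SE, adjusted p = 0.000164). Of the other genes of the inhibitory neuron list, Gad2, another GABA-making enzyme, had 23, 0, 46 and 0 counts, Slc32a1, the vesicular GABA transporter, 11, 0, 20 and 0, Adarb2, an RNA-binding protein, 246, 4, 360 and 122, and Erbb4, a neuregulin receptor, 69, 53, 320 and 252. The list's share of mouse counts was 0.0603 to 0.215% in xylene and 0 to 0.268% in mineral oil at 10 nuclei, and 0.124 to 0.274% and 0.0192 to 0.143% at 100, overlapping at both. At 10 nuclei the overlap rested on the mineral oil well of barcode 8: the other 7 held 0 to 0.0288%, all below the xylene wells, and the mineral oil mean of 0.0472% was 0.0157% without it. Of its 3 members in the fit, 2 were lower at 10 and 1 at 100, and 0 were higher; after the shift 2 were lower and 1 higher at 10, and 2 lower at 100.

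Meis2, a homeodomain transcription factor of striatal and other GABAergic neurons (chr2:115863064-116065839, minus strand), had 191, 1, 543 and 60 counts. It ran from 148 to 1260.0 CPM (median 281) in xylene and 0 to 49.9 CPM (median 0) in mineral oil at 10 nuclei, and from 526 to 1416 CPM (median 713) and 0 to 255 CPM (median 48.5) at 100. No mineral oil well reached a xylene well at either number (log2 fold changes -5.74 ± 0.94 SE, adjusted p = 3.02e-06 and -3.02 ± 0.55 SE, adjusted p = 0.000339). Camk2a, a kinase of the postsynaptic density of excitatory neurons, had 86, 1, 146 and 13 counts, with log2 fold changes of -4.29 ± 1.08 (SE, adjusted p = 0.000893) and -3.23 ± 0.70 (SE, adjusted p = 0.00243). Dcx, a microtubule protein of migrating neurons, had 52, 2, 107 and 8 counts (-2.62 ± 0.96 SE, adjusted p = 0.0203 and -3.22 ± 0.71 SE, adjusted p = 0.00261 on the log2 scale); relative to the median shift it was called at 100 nuclei but not at 10. Penk, the enkephalin precursor of striatal neurons, had 108, 1, 96 and 14 counts, and Tenm3, a synaptic adhesion protein, 294, 4, 532 and 108.

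The rest of the lower genes were of mixed function. Nat8l, which makes N-acetylaspartate in neurons, had 175, 0, 109 and 18 counts and was at least 13.8-fold lower at 10 nuclei. Ramp1, a subunit of the CGRP receptor, had 174, 0, 54 and 2 counts, at least 13.7-fold lower at 10, with a ratio of 0.0442 (95% interval 0.00522 to 0.168) at 100 (exact, counting error only; 0.0268 without the mineral oil well of barcode 6, which held 1 of the 2 counts). Basp1, a growth cone membrane protein, had 87, 1, 95 and 0 counts and was at least 26.5-fold lower at 100. Cpne4, a calcium-binding copine, had 96, 0, 339 and 67 counts, Myo16, an unconventional myosin, 209, 5, 298 and 22, and Ptprn, a membrane protein of dense-core vesicles, 85, 0, 121 and 15. Nrip3 (78, 1, 118 and 0), Zswim6 (95, 0, 107 and 7) and Gltscr2 (89, 0, 55 and 1) were called lower at both numbers too. Gm10800 (64, 0, 310 and 28) and Gm21738 (50, 0, 214 and 19) are predicted genes with near-identical copies, and their counts are uncertain.

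Malat1, an abundant nuclear long noncoding RNA (chr19:5795690-5802672, minus strand), was lower in mineral oil at both numbers and was seen in all 8 wells of every pool. It made up 0.731 to 1.58% of mouse counts (median 1.19) in xylene and 0.234 to 0.998% (median 0.54) in mineral oil at 10 nuclei, and 1.82 to 2.81% (median 2.33) and 1.06 to 1.69% (median 1.23) at 100. The groups overlapped at 10 nuclei and not at 100. Its counts were 5761, 598, 15710 and 7469, and its log2 fold changes -1.58 ± 0.19 (SE, adjusted p = 5.62e-09) and -0.74 ± 0.18 (SE, adjusted p = 0.00853); at 10 nuclei after the shift its log2 fold change was -0.47 (adjusted p = 0.0381). Heated xylene wells held 0.491 to 0.981% at 10 nuclei and 1.35 to 1.9% at 100, overlapping mineral oil at both numbers and room-temperature xylene as well. In the frozen wells Malat1 made up a mean 8.37% at 10 nuclei and 10% at 100.

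Other members of the noncoding list had other values at 100 nuclei. Meg3, an imprinted maternally expressed RNA, had 1656, 91, 3332 and 2278 counts: -2.53 ± 0.34 (SE, adjusted p = 6.82e-08) at 10 nuclei and -0.20 ± 0.31 (SE, adjusted p = 0.784) at 100. Snhg11, a small nucleolar RNA host gene of neurons, had 482, 17, 822 and 1229 counts, lower at 10 (-3.03 ± 0.30 SE, adjusted p = 4.49e-11) and higher at 100 (0.88 ± 0.24 SE, adjusted p = 0.0189), the latter not called relative to the median shift (adjusted p = 0.0644). Neat1, the scaffold of nuclear paraspeckles, had 0, 1, 88 and 135 counts. With Malat1 the list took 1.09 to 2.13% in xylene and 0.334 to 1.02% in mineral oil at 10 nuclei, and 2.34 to 3.57% and 1.59 to 2.33% at 100, with no overlap between methods at either number. Without Malat1 the other members took 0.296 to 0.605% (mean 0.436) and 0.0133 to 0.2% (mean 0.0889) at 10 nuclei, again with no overlap, but 0.512 to 0.763% (mean 0.629) and 0.453 to 0.793% (mean 0.63) at 100, so the difference at 100 was that of Malat1. With Malat1, heated xylene wells held 1.06 to 1.72% and 1.98 to 2.65%.

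Higher in mineral oil at both numbers were 4 genes. Pick1, a scaffold that binds AMPA receptors, had 2, 33, 14 and 62 counts, a ratio of 69.8 (95% interval 17.9 to 600.4) at 10 nuclei and 5.29 (95% interval 2.93 to 10.2) at 100 from its summed counts. Its log2 fold changes were 5.31 ± 0.75 (SE, adjusted p = 1.49e-07) and 2.38 ± 0.57 (SE, adjusted p = 0.00604). Bmp1, a protease that processes procollagen, had 86, 55, 83 and 237 counts (1.06 ± 0.43 SE, adjusted p = 0.0392 and 1.90 ± 0.41 SE, adjusted p = 0.00243), and Rrp1, a ribosome biogenesis factor, 165, 112, 176 and 365 (1.20 ± 0.42 SE, adjusted p = 0.0162 and 1.42 ± 0.41 SE, adjusted p = 0.031). For Rrp1 the call at 100 nuclei was lost relative to the median shift (adjusted p = 0.058). Gm9923 (529, 241, 326 and 532 counts, with no overlap between methods at either number) is a pseudogene, so its counts are uncertain.

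The counts of the functional lists at 10 nuclei are to be read against all tested genes, of which 42.0% were lower and 4.95% higher there, and against 2.93% lower and 1.77% higher at 100. Counts after the shift are to be read against 513 lower and 377 higher of all 1979 genes at 10 nuclei. Of 34 respiratory chain genes in the fit, which build the mitochondrial electron transport complexes, 20 were lower and 0 higher at 10 nuclei, with 17 at 0 in all mineral oil wells; at 100 nuclei 0 were called in either direction. Their median ratio was 0.259 at 10 nuclei and 1.01 at 100, and their share of mouse counts was 0.502 to 1.04% in xylene and 0.175 to 0.556% in mineral oil at 10. Relative to the median shift 18 were lower and 2 higher. Atp5a1, a subunit of ATP synthase, had 219, 0, 217 and 95 counts and was at least 17.3-fold lower at 10 nuclei. Aldoa, a glycolytic aldolase, had 230, 0, 435 and 333 counts: it was at least 18.1-fold lower at 10 and did not pass the threshold at 100 (-0.14 ± 0.32 SE, adjusted p = 0.945 on the log2 scale).

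Of 28 ribosomal protein genes in the fit, 13 (near the share of all genes) were lower and 4 higher at 10 nuclei, and 1 lower at 100 (median ratios 0.513 and 0.675); after the shift 9 were lower and 5 higher at 10. Rpl8, a protein of the large subunit, had 195, 0, 147 and 26 counts, at least 15.4-fold lower at 10, and Rps15a, of the small subunit, had 129, 1, 134 and 16, lower at both numbers. Many ribosomal protein genes have processed pseudogenes, so their counts are uncertain. Of 26 splicing and RNA-binding genes 13 were lower at 10 nuclei and 0 were called at 100 (median ratios 0.334 and 1.09), also near the shares of all genes; after the shift 10 were lower and 3 higher at 10. Ddx5, an RNA helicase, had 314, 1, 344 and 521 counts (log2 fold change at 10 nuclei -6.23 ± 0.60 SE, adjusted p = 2.44e-11). Clip3, a microtubule-linker protein, had 241, 0, 282 and 334 counts and was at least 19-fold lower at 10.

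Synaptic groups had calls at 10 nuclei, against 42.0% of all genes lower and 4.95% higher there, and few at 100. After the shift 513 of all 1979 genes were lower and 377 higher at 10 nuclei. Of 22 genes of synaptic vesicle release 10 were lower and 2 higher at 10 nuclei, and 1 was higher at 100 (median ratios 0.631 and 1.10); after the shift 5 were lower and 7 higher. The share of the vesicle list was 0.669 to 1.27% in xylene and 0.329 to 2.29% in mineral oil at 10 (means 0.96 and 1.12%; without the mineral oil well of barcode 4 the difference of the means, 0.161 percentage points, was -0.0057). Snap25, a SNARE protein of vesicle fusion, had 579, 28, 893 and 1012 counts. Of 25 glutamate receptor and scaffold genes 12 were lower and 1 higher at 10 (median ratio 0.359), and 0 were called at 100 (0.641). After the shift 7 were lower and 7 higher at 10, and 1 was lower at 100. As a share of counts that list had the higher mean in mineral oil at 10 nuclei: 1.66 to 3.6% (mean 2.64) in xylene and 2.13 to 3.76% (mean 3.27) in mineral oil, which overlapped. Of 38 neuronal adhesion genes 16 were lower at 10 and 1 at 100 (0.629 and 0.812). After the shift 9 were lower and 10 higher at 10, where the share of counts was 2.95 to 3.88% and 2.58 to 4.35%. At 100 nuclei the adhesion share averaged 3.50% in xylene and 3.15% in mineral oil, with overlap (exact permutation test, adjusted p = 0.0148). Of 24 voltage-gated channel genes 7 were lower and 1 higher at 10 (0.824), and of 9 GABA-A receptor genes 4 were lower (0.302); neither list had a call at 100. After the shift the channel list had 3 lower and 4 higher at 10 and 1 lower at 100, and the GABA-A list 2 lower and 1 higher at 10. Of 8 dense-core vesicle genes, which package neuropeptides, 5 were lower at 10 and 1 at 100 (0.212 and 1.22); after the shift 5 were lower and 1 higher at 10.

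Other lists had the following counts. Of 21 abundant cytoplasmic messages 12 were lower and 2 higher at 10 nuclei and 0 were called at 100; after the shift it was 8 lower and 3 higher at 10. Of 6 heat shock genes 3 were lower and 1 higher at 10 (2 and 1 after the shift). Of 8 mitochondrially encoded genes 3 were lower and 0 higher at 10, a share near that of all genes, and after the shift 2 were lower and 2 higher. Of 12 granule neuron markers 8 were lower and 1 higher at 10, and 1 higher at 100; after the shift 3 were lower and 2 higher at 10. The Purkinje cell list had 2 markers in the fit, both lower at 10, and 0 called after the shift. Of 5 cortical projection neuron markers 2 were lower at 10, again near the share of all genes, and 1 after the shift, and 1, Camk2a, was lower at 100. Both striatal markers in the fit were lower at 10, 1 of them after the shift, and 1, Penk, was lower at 100. Oligodendrocyte precursor and endothelial markers had 1 gene each in the fit, with no call (after the shift the precursor gene was higher at 10), and mural, ependymal and immediate early genes had none. The mural markers took 0.00183 to 0.0313% of counts in xylene and 0 to 0.00609% in mineral oil at 10 nuclei, and the immediate early genes 0.0363 to 0.0605% and 0.0155 to 0.0512% at 100, overlapping in both cases, the latter through the mineral oil well of barcode 1 alone (without it mineral oil reached 0.0342%).

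Microglial markers, genes of the brain's resident immune cells, did not overlap between methods at 10 nuclei as a share of counts: 0.0264 to 0.147% (median 0.0579) in xylene and 0 to 0.0153% (median 0.00312) in mineral oil. At 100 nuclei they overlapped, 0.0345 to 0.0735% against 0.0268 to 0.122%. Ctss, a lysosomal protease of microglia, had 120, 0, 51 and 42 counts, at least 9.45-fold lower at 10. The complement genes C1qa, C1qb and C1qc had 0 counts in mineral oil at 10 nuclei, against 15, 48 and 24 in xylene, and 13, 71 and 25 in mineral oil at 100. Cx3cr1, the fractalkine receptor, had 14, 3, 31 and 77 counts, a ratio per total counts of 0.907 (95% interval 0.167 to 3.25) at 10 nuclei and 2.97 (95% interval 1.93 to 4.66) at 100. The list had 2 members in the fit, of which 2 were lower at 10 nuclei and 0 were called at 100.

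Among the genes higher in mineral oil at 10 nuclei, Slc25a25, a mitochondrial carrier, had 0, 43, 14 and 26 counts, at least 60.6-fold higher, Cd63, a tetraspanin of late endosomes, had 0, 36, 19 and 5, at least 50.8-fold higher, and Urod, an enzyme of haem synthesis, had 0, 22, 10 and 40, at least 31-fold higher. Without 1 mineral oil well the bound was 32.9-fold for Cd63 (barcode 8, 16 of 36 counts) and 18.7-fold for Urod (barcode 7, 10 of 22). Nenf, a secreted neurotrophic protein, had 1, 69, 35 and 67 counts, a ratio of 292 (95% interval 50.7 to 11695). Cbln3, a granule neuron synaptic organizer, had 33, 118, 222 and 188 counts and a log2 fold change of 3.72 ± 0.63 (SE, adjusted p = 4.46e-06) at 10 nuclei. Apoe, the lipid carrier of glia, had 94, 107, 237 and 239 counts (2.01 ± 0.43 SE, adjusted p = 0.000164 at 10 nuclei). Without overlap of the 8 and 8 wells in CPM, 221 genes (11.2%) were lower and 16 (0.808%) higher in mineral oil at 10 nuclei.

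At 100 nuclei, where depths overlapped, 34 genes were called at that number only, and 59 at both. The count at 100 depended on the fit: the 93 calls were 23 with the 32 wells fitted alone and 308 with limma voom. Without overlap of wells 30 genes (1.52%) were lower and 14 (0.707%) higher. Igsf5, a junction protein, had 309, 42, 299 and 3 counts (log2 fold change -5.78 ± 0.84 SE, adjusted p = 1.28e-05), and Idh2, the mitochondrial isocitrate dehydrogenase, 7, 0, 52 and 0. Dgkb, a diacylglycerol kinase of neurons and one of the most abundant genes in these wells, had 4417, 1599, 6265 and 2850 counts (-1.01 ± 0.29 SE, adjusted p = 0.0298). Syt2, a calcium sensor of fast synapses, was higher in mineral oil with 20, 2, 69 and 239 counts (2.09 ± 0.57 SE, adjusted p = 0.018). Gpc1, a glypican, had 0, 1, 23 and 130 counts.

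Astrocyte markers had calls higher in mineral oil than in room-temperature xylene at 100 nuclei, where heated xylene wells had a mean share like that of mineral oil. Of 9 astrocyte markers in the fit, 3 were higher and 0 lower at 100 nuclei (1.77% of all genes were higher), while 4 were lower and 0 higher at 10, near the 42.0% of all genes lower there (median ratio 2.17 at 100 and 0.705 at 10); after the shift it was 3 higher at 100, and 1 higher and 2 lower at 10. The list's share of counts was 0.178 to 0.346% (median 0.211) in xylene and 0.272 to 0.534% (median 0.461) in mineral oil at 100, which overlapped, and 0.128 to 0.681% against 0.125 to 0.737% at 10. In heated xylene at 100 nuclei it was 0.29 to 0.558%, with a mean of 0.42%, beside 0.423% in mineral oil and 0.237% in room-temperature xylene. The 3 higher genes were Aldoc, Clu and Sparcl1. Sparcl1, a secreted protein of astrocytes that promotes synapses, had 6, 1, 129 and 329 counts (log2 fold change 1.86 ± 0.51 SE, adjusted p = 0.0204). The other lists with lower shares at 100 nuclei included ribosomal protein genes, 0.739 to 0.93% against 0.5 to 0.791%, and heat shock genes, 0.234 to 0.303% against 0.152 to 0.24%. Heated xylene wells at 100 nuclei held 0.487 to 0.681% and 0.115 to 0.272%.

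Opposite calls at the 2 numbers were made for 16 genes: 14 were lower at 10 and higher at 100, and 2 the reverse. They were 14 of the 35 genes higher at 100 and 2 of the 58 lower there. Both are near the shares of all tested genes at 10 nuclei, 42.0% lower and 4.95% higher. There were 4 such genes with the 32 wells fitted alone, 31 with limma voom and 0 over the genes seen in every pool. Aldoc, the aldolase of astrocytes and of Purkinje cell stripes, had 115, 0, 77 and 195 counts: at least 9.06-fold lower at 10 nuclei, and 1.66 ± 0.42 (SE, adjusted p = 0.0106) on the log2 scale at 100. At 100 nuclei it ran from 36.3 to 169 CPM (median 134) in xylene and 230.4 to 662 CPM (median 294) in mineral oil. Clu, a secreted chaperone of astrocytes, had 72, 0, 129 and 305 counts, at least 5.67-fold lower at 10 and 1.53 ± 0.33 (SE, adjusted p = 0.00261) at 100. Ntsr2, a neurotensin receptor also found in astrocytes, had 25, 0, 10 and 115 counts, at least 1.97-fold lower at 10, with a ratio of 13.7 (95% interval 7.2 to 29.4) at 100. Zic1, a transcription factor of granule neurons, had 79, 5, 112 and 272 counts, and Sh3glb2, an endophilin relative, 51, 0, 102 and 333. The reverse held for Kctd2 (1, 29, 25 and 0 counts, ratio 123, 95% interval 20.3 to 5011, at 10 nuclei and at least 6.98-fold lower at 100) and Kat5, a histone acetyltransferase (25, 66, 10 and 0 counts, ratio 11.2, 95% interval 6.95 to 18.5, at 10 and at least 2.79-fold lower at 100). The difference between methods had a different sign in the 2 pairs of pools for these genes.

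Gene length is given as a description of the called sets. The span from start to end in the annotation (GENCODE, GRCm38; 99.3% of tested genes matched) had a median of 94.8 kb over all tested genes, 90.4 kb over the genes lower in the averaged contrast and 34.8 kb over those higher. The 39 genes lower at both numbers had a median of 50.5 kb, the genes lower at 100 nuclei 49.7 kb and those higher at 100 nuclei 24.4 kb. The 171 genes absent from mineral oil at 10 nuclei and in all 8 xylene wells had 34.0 kb, and the 250 genes seen in all 8 wells of every FFPE pool 179.9 kb. Median GC content was 48% over all tested genes, 48.3% and 49.5% over lower and higher genes of the averaged contrast, and 46.5% over the 250 genes. The last 2 sets were chosen by detection in these wells.

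Ctsc, a lysosomal protease, and Tspan3, a tetraspanin, took a share of counts that varied between wells. Ctsc had 24465, 11904, 5740 and 10411 counts and Tspan3 19846, 10206, 3535 and 9004. Together they took 17.9 ± 7.77% of mouse counts in mineral oil and 9.07 ± 5.59% in xylene at 10 nuclei (SD, n = 8; exact permutation p = 0.021), and 4.07 ± 2.99% and 1.63 ± 1.24% at 100 (exact permutation p = 0.0326). In the frozen wells they averaged 0.0902% and 0.0216%. Tspan3 was called higher in mineral oil at 100 nuclei (1.74 ± 0.48 SE, adjusted p = 0.0204 on the log2 scale).

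Other libraries of the same kind of material were used for direction only: SMART-Seq2 bulk wells, 9 FFPE wells with 1 well per method at each of 10, 50 and 100 nuclei. No gene of the 1845 tested in both passed the adjusted threshold (edgeR; 92 at an unadjusted p under 0.05), and over those genes the log2 fold change correlated with that of SCRB-seq at r = 0.07 averaged, 0.04 at 10 nuclei and 0.11 at 100. Of the 39 genes lower at both numbers, 29 (74.4%) were lower in SMART-Seq2, beside 48.2% of all tested genes, 8 of them at an unadjusted p under 0.05. The larger lower sets did not share this: 50.1% of the genes lower in the averaged contrast and 49.6% of those lower at 10 nuclei were lower in SMART-Seq2. Of the genes called higher, 57 of 91 in the averaged contrast and 55 of 94 at 10 nuclei were higher in SMART-Seq2, beside 956 of all 1845. Of the 4 genes higher at both numbers the 2 tested were both lower. Gad1 (-2.40), Meis2 (-1.62), Dcx (-4.58) and Tenm3 (-1.95 on the log2 scale) were among the 29, while Gm10800 and Gm21738 were higher (3.93 and 3.34). Of the genes lower at 100 nuclei 39 of 55 (70.9%) were lower in SMART-Seq2, but of those higher only 8 of 27 were higher. Of the oligodendrocyte markers 9 of 10 were lower in SMART-Seq2 (median -0.86), and their share was 0.164, 0.15 and 0.311% in xylene and 0.0884, 0.243 and 0.104% in mineral oil at 10, 50 and 100 nuclei, so mineral oil was lower at 10 and 100 and higher at 50. The astrocyte markers, with calls higher in mineral oil at 100 nuclei in SCRB-seq, did not have that direction here: 9 of 12 were lower (median -0.43), and their share was 0.0185, 0.461 and 0.375% in xylene and 0.0365, 0.242 and 0.308% in mineral oil at 10, 50 and 100 nuclei.

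The well barcode was itself related to some genes. Among the 1979 genes 278 (14.0%) differed by well barcode (edgeR, adjusted p under 0.05), with barcode 3 leading for 70 and barcode 7 for 49 of them. 4930558K02Rik was highest in barcode 3 in 6 of 6 FFPE pools, at a mean 3116 CPM against 255 in the other barcodes, and Trpc4, a cation channel, in barcode 7 (5920 against 562). Calcrl, a receptor subunit, was highest in barcode 7 too (7549 against 873). Ctsc and Tspan3 were highest in barcode 3 in 4 of 6 pools. In the frozen wells the same barcode led for 72 of 265 such genes (27.2%), and for 234 of 1681 other genes (13.9%). None of the 39 genes lower at both numbers was among the 278 (0 of 39). Each method and number used every barcode once, so the method comparison was balanced over barcodes.

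**Figure D5:**
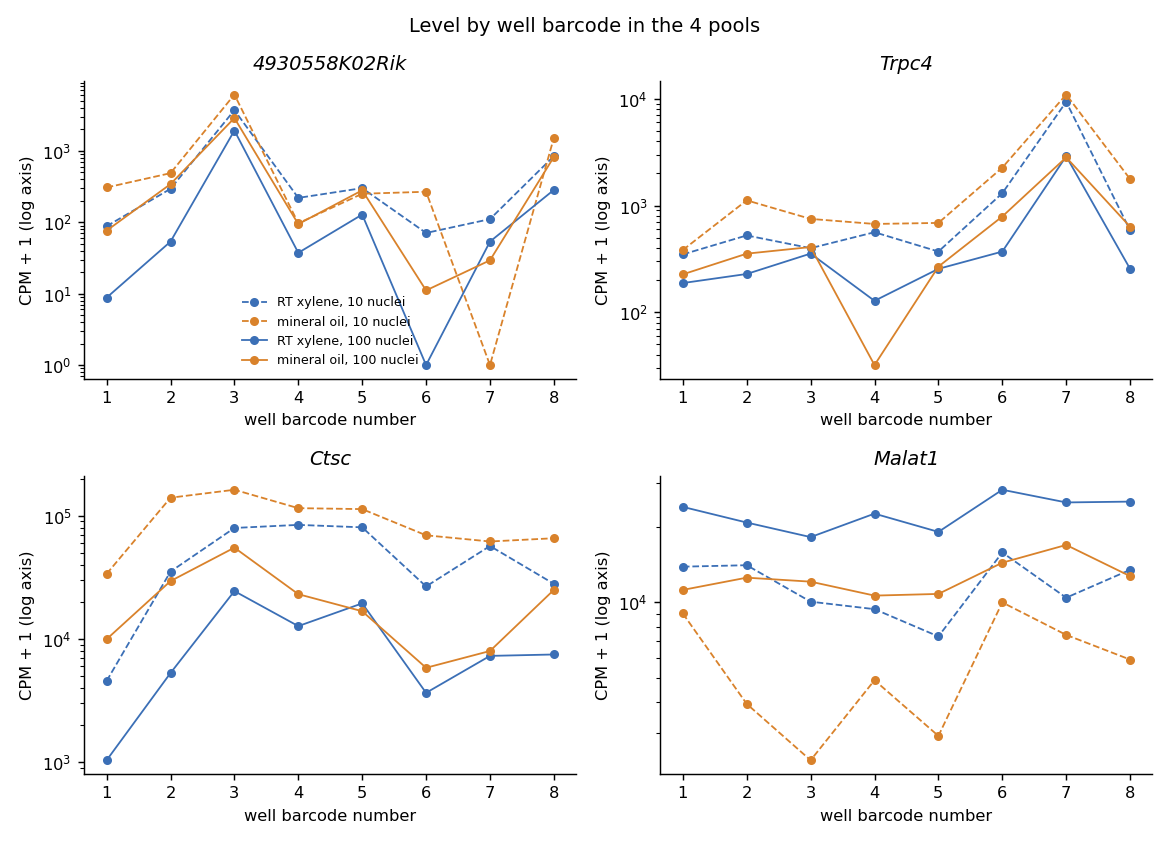
CPM + 1 (log axis) by well barcode in the 4 pools for 4930558K02Rik, Trpc4, Ctsc and Malat1. 4930558K02Rik peaks at barcode 3 and Trpc4 at barcode 7 in each pool, and Malat1 has no such peak.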

How the data were processed

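Bulk SCRB-seq wells of mouse brain nuclei were analysed from the authors' deposited count table, whose values are whole, unnormalized counts per gene and well that sum to the totals in the authors' well annotation. The table holds 19006 mouse and 10653 human genes. Per the submitters' processing notes, the builds were hg19 and mm10. Aligner, counter and any collapsing of molecular identifiers: not given in the sources used here; counts may include PCR copies, and all intervals and floors cover counting error only. SMART-Seq2 bulk counts, also as deposited, served for direction.

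Method and nuclei number came from the deposited well annotation. Human genes were left out of the fits and totals. Genes were filtered with filterByExpr over the 6 FFPE groups, scaled by TMM and tested with edgeR 4.0.16's quasi-likelihood test (R 4.3.3) on group means over 48 FFPE wells, with contrasts at 10 nuclei, at 100 nuclei, their average and their difference, and Benjamini-Hochberg adjustment over 1979 genes at 0.05. Heated xylene wells were in the fit to share the estimate of spread. Single values were compared with exact two-sided permutation tests of 8 against 8 wells (NumPy 2.4.6). Intervals of count ratios were exact binomial intervals (SciPy 1.17.1). For equal depth each well was thinned to 7512 counts. Alternatives used DESeq2 1.42.0 and limma 3.58.1. The edgeR fit of the averaged contrast was tested on simulated counts. Total mouse counts ranged from 7512 to 128394 per well. Gene positions and spans are those of the GENCODE annotation of GRCm38. A fold against a group at 0 used 3 counts summed over its 8 wells.

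The wells, gene lists and tests were chosen with earlier results of these data known. Named genes were the 10 largest changes each way in the averaged contrast and among genes called alike at both numbers, the 5 largest each way within a number and for the difference between numbers, up to 4 called members per list, and the most abundant genes; members of a list named with counts below the threshold were added after their values were seen. Well numbers recur across pools as barcodes; the labels do not say that they mark a shared animal, and wells were not paired. Values of some genes are not reported here.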

Additional observations from a re-analysis of the deposited data

Results flagged for a closer look

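In 124 groups of 8 wells examined for a highest or lowest well far from the rest, 16 had one. The cutoff's rate of about 1 in 20 holds for independent, normally distributed values. Many of these groups are shares near 0 from the same wells, so that rate cannot be applied to them. In xylene at 10 nuclei, the well of barcode 1 stood apart in oligodendrocyte markers (1.75% of mouse counts, group median 0.207) and ribosomal protein genes (1.36%, median 0.494). The well of barcode 7 stood apart there in striatal neuron markers (0.195%, median 0.0371) and astrocyte markers (0.681%, median 0.241), that of barcode 3 in endothelial markers (0.119%, median 0.0236), and that of barcode 8 in mural markers (0.0313%, median 0.00636). In mineral oil at 10 nuclei, the well of barcode 8 stood apart in inhibitory neuron markers (0.268%, median 0.0236) and striatal markers (0.0975%, median 0.00978), and that of barcode 1 in immediate early genes (0.0917%, median 0.00554).

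At 100 nuclei in mineral oil, the well of barcode 3 had 17.7% of counts in its 10 most abundant genes (median 9.43), that of barcode 2 had 0.0158% in ependymal markers (median 0.00136), and that of barcode 4 had 2.49% in glutamate receptor and scaffold genes (median 2.05). In xylene at 100 nuclei, the well of barcode 6 had 0.274% in inhibitory neuron markers (median 0.155), that of barcode 5 had 0.133% in oligodendrocyte precursor markers (median 0.041), and that of barcode 3 had 0.108% in endothelial markers (median 0.0323) and, as the lowest of its group, 1.46% in voltage-gated channel genes (median 1.84).

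The method difference at 10 nuclei differed from that at 100 for 766 genes (edgeR interaction, adjusted p under 0.05). The largest on the log2 scale, 10 minus 100 nuclei, were Kctd2 (9.85), Cd63 (8.52), Slc25a25 (6.11), Kat5 (6.08) and Tbc1d16 (5.94) in 1 direction, and Clip3 (-8.78), Ntsr2 (-8.76), Aldoc (-8.63), Pfkm (-8.40) and Vsnl1 (-8.22) in the other. Most of these genes had a pool at 0 counts, so the fitted sizes depend on the prior count and are not bounds.

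Counts on human genes, outside the mouse comparison, were 26.7% in mineral oil and 15.7% in xylene at 10 nuclei, and 10.4% and 8.43% at 100, above the frozen wells (2.78% and 1.91%). Their source was not tested.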

How the results depend on the processing

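The counts of called genes are given for the average, 10 nuclei, 100 nuclei, the difference between numbers, and the same direction at both, in that order, where main values were 831, 930, 93, 766 and 43. Without a filter on low counts they were 3182, 3410, 1593, 1862 and 357; with a stricter filter 537, 570, 45, 445 and 17; with the 32 wells fitted alone 544, 584, 23, 459 and 11; with wells thinned to the lowest total (124 genes tested) 37, 29, 12, 14 and 2; and over 639 genes seen in every pool 83, 76, 14, 31 and 3. The number of genes tested differed in each of these. limma voom gave 308 at 100 nuclei, 458 for the difference and 109 alike at both. Without nuclei number as a term the average gave 247, and with counts summed over each pool 0 (edgeR; 86 at an unadjusted p under 0.05). With the well barcode as a replicate block the counts were 854, 925, 152, 757 and 61; the labels tie no animal to a barcode. DESeq2 moved none of these counts by more than 1.5 times.

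Leaving out each well in turn, with 2162 to 2208 genes past the filter, gave 838 to 933, 976 to 1063, 78 to 107, 779 to 852 and 36 to 53 calls. Genes per well at equal depth then differed by -1087 to -948 at 10 nuclei and -415 to -312 at 100, and human share by 10.2 to 11.9 and 1.40 to 2.48 percentage points; with at least 2 counts the difference in genes at 100 nuclei was -11.3 (exact permutation p = 0.807). Of the 52 list shares tested over both numbers, 14 to 19 then differed by the adjusted exact permutation test, against 15 with all wells. Correlation within a pool, mineral oil minus xylene, was 0.0623 at 10 nuclei and 0.0158 at 100 at equal depth, and -0.142 and 0.00867 as deposited. Without nuclei number as a term the averaged log2 fold change turned for Aldoc (0.14), Clu (0.70), Snhg11 (0.039) and mt-Nd6 (0.38). The cause was not tested. Without Malat1, a choice made after seeing the data, as was leaving wells out of the fold bounds, the noncoding list differed by 0.000365 percentage points at 100 nuclei, against -1.02 with it. Depth limits the wells of 10 nuclei in mineral oil most: a gene at 0 there is not shown to be absent.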
